A study of Mus musculus with 6 samples.

Results

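Phospholipase C gamma 2 cleaves phosphatidylinositol 4,5-bisphosphate into diacylglycerol and inositol trisphosphate. Followed here were 35 genes whose proteins supply that lipid, clear those products, or remove phosphates from that lipid or a related one. The genes were chosen by symbol for their place in or beside this cycle and are 35 of the 54347 genes of the deposited table. They are 8 diacylglycerol kinases, 3 enzymes of phosphatidylinositol resynthesis, 10 lipid kinases, 4 transfer proteins, 5 lipid phosphatases and 5 enzymes that modify soluble inositol phosphates. The libraries are from microglia, the macrophages of the brain, cultured from forebrains of C57BL/6 pups aged 2 to 3 days, 3 libraries from Plcg2+/+ and 3 from Plcg2-/- littermates, named here by genotype and replicate number. Which part of Plcg2 the knockout removes and how it was made remain unknown, since the labels name only the genotype. Both genotypes were grown with GM-CSF, a myeloid growth factor, at 5 ng/mL with 10% serum until microglia were shaken off an astrocyte layer on day 12 to 13, then kept at least 72 h with 0.5 ng/mL GM-CSF and 1% serum, so no library is from freshly isolated cells. Whether replicates came from different animals or flasks goes unstated in the labels, so the p-values describe the spread among these 6 libraries, which could be technical.

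In the phosphoinositide cycle, phosphatidylinositol made at the endoplasmic reticulum is carried by transfer proteins to the plasma membrane, where kinases add phosphates at positions 4 and 5 of the inositol ring to give the phospholipase C substrate. After cleavage, diacylglycerol kinases turn diacylglycerol into phosphatidate, CDP-diacylglycerol synthases and phosphatidylinositol synthase rebuild the parent lipid, and inositol phosphates are further phosphorylated or stripped to free inositol. Lipid phosphatases remove the same phosphates from the membrane lipids. In myeloid cells the pathway runs downstream of immune receptors that signal through tyrosine kinases.

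Values are TPM, abundances corrected for transcript length and scaled to sum to 1000000 per library; the depth behind a value is unknown. Plcg2 had 45.2, 39.7 and 54.9 TPM in Plcg2+/+ and 16.1, 16.7 and 16.1 TPM in Plcg2-/- libraries, lower in every knockout library though not at 0. Of 12 microglial markers, 10 had a mean of at least 1 TPM, with a summed level of 5297 to 7299 TPM in Plcg2+/+ and 5742 to 8774 TPM in Plcg2-/-. That overlap of sums hides single markers: 5 of the 12 (P2ry12, Aif1, C1qa, C1qb and Tyrobp) lay higher in every Plcg2-/- library and 3 (Itgam, Trem2 and Cx3cr1) lower. Among those that define microglia in the brain, Sall1 stayed at or below 0.371 TPM, Tmem119 at or below 1.47 TPM and Cx3cr1 at or below 2.93 TPM in every library, while P2ry12 had 2.20 to 9.29 TPM in Plcg2+/+ and 18.9 to 27.7 TPM in Plcg2-/-. Itgam had 359 to 511 TPM and 70.1 to 99.97 TPM, and Trem2 889 to 1538 TPM and 251 to 540 TPM. Mitochondrially encoded transcripts took 13.6 to 17.3% of TPM in Plcg2+/+ and 5.00 to 8.68% in Plcg2-/-. Summed markers of border or monocyte macrophages were 183 to 289 TPM in Plcg2+/+ and 378 to 605 TPM in Plcg2-/- (4 of 7 with a mean of at least 1, mostly Mrc1 and Pf4, with Lyve1, Cd163 and Cd209f at or near 0), and those of fibroblast or vascular cells 6.71 to 9.05 and 18.3 to 25.1 TPM (1 of 9, Kdr). The summed astrocyte, oligodendrocyte-lineage, neuron and neutrophil or lymphoid markers overlapped between genotypes, but 3 single markers did not: Aldh1l1 of astrocytes (9.23 to 16.0 against 19.6 to 36.9 TPM) and Cnp of oligodendrocytes (13.8 to 17.9 against 32.6 to 37.1 TPM) were higher in Plcg2-/-, and Cspg4 of their precursors (6.72 to 13.1 against 0.239 to 0.821 TPM) lower. Ly6g, Elane and Cd3e were at 0 throughout. In bulk samples, fewer cells of a type and less RNA per cell cannot be told apart, and the part of other cell types in the differences below was not tested.

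Of the 35 genes, 30 had a mean of at least 1 TPM and were tested. In Plcg2-/- microglia 6 rose, Synj1, Pip4k2a, Inpp4a, Cds1, Pitpnb and Inpp5b, and 2 fell, Dgkz and Dgke. The rises of Synj1 and Pip4k2a, to 2.28 and 2.08 times the Plcg2+/+ level on the log2(TPM + 1) scale, were the largest of the tested genes in this group, and the fall of Dgkz, to 0.598 times, was the lowest. Among all 12652 genes tested with limma, 15.6% were higher and 5.31% lower in Plcg2-/- at a Benjamini-Hochberg adjusted p below 0.05. The group's 20% higher and 6.67% lower lie near those shares and are not a result about the group. The median log2 fold change, on the log2(TPM + 1) scale with positive values for genes higher in Plcg2-/-, was 0.10 over the 30 genes and 0.19 over all genes tested. All 3 values of one genotype lay above the 3 of the other for 11 tested genes higher and 7 lower in Plcg2-/-, 36.7% and 23.3% of the 30, against 32.4% and 10.9% of all genes tested. The plot of fold changes by role shows 3 of 4 tested lipid phosphatases called higher and 2 of 6 tested diacylglycerol kinases called lower.

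**Figure D1:**
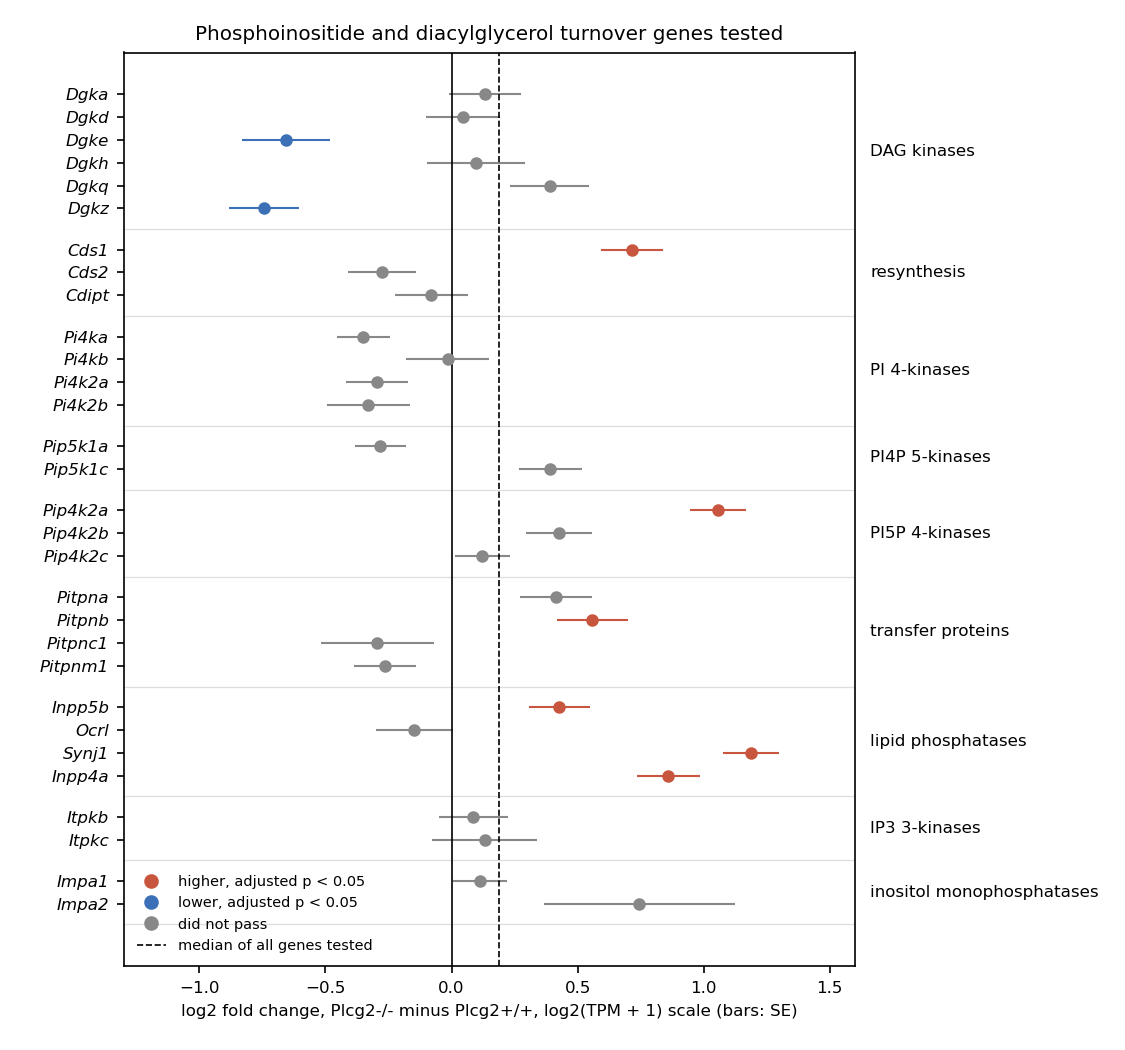
Log2 fold change of each of the 30 tested genes, Plcg2-/- minus Plcg2+/+ on the log2(TPM + 1) scale, with its moderated standard error as a bar, ordered by role from top to bottom. Red points are the 6 genes that passed as higher, blue points the 2 that passed as lower, grey points the 22 that did not pass, and the dashed line is the median of all genes tested at 0.19.

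The calls depended on how the libraries were scaled. After median-of-ratios scaling, which moved the median of all tested genes to -0.01, 4 members were higher (Synj1, Pip4k2a, Inpp4a and Cds1) and 4 lower (Dgkz, Dgke, Pi4ka and Pip5k1a), against 7.72% and 7.91% of all genes tested. With the replicate numbers as a block, 8 members were higher, with Pip5k1c and Pitpna added, and 1 lower, with Dgke lost, against 19.6% and 6.44% of all genes tested. Synj1, Pip4k2a and Inpp4a passed in each of the 16 alternative settings tried, and Cds1 in 15. Without Plcg2-/- 1 the adjusted p of Cds1 was 0.05002 and 3 of 30 members were higher, against 618 of all 12680 genes tested. Without Plcg2+/+ 1, and also without Plcg2-/- 1, limma called 0 members lower, against 4 and 3 at an unadjusted p below 0.05. Over all genes tested, 349 of 12648 and 308 of 12680 were called lower in those fits. The map of adjusted p by setting shows these differences gene by gene.

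**Figure D2:**
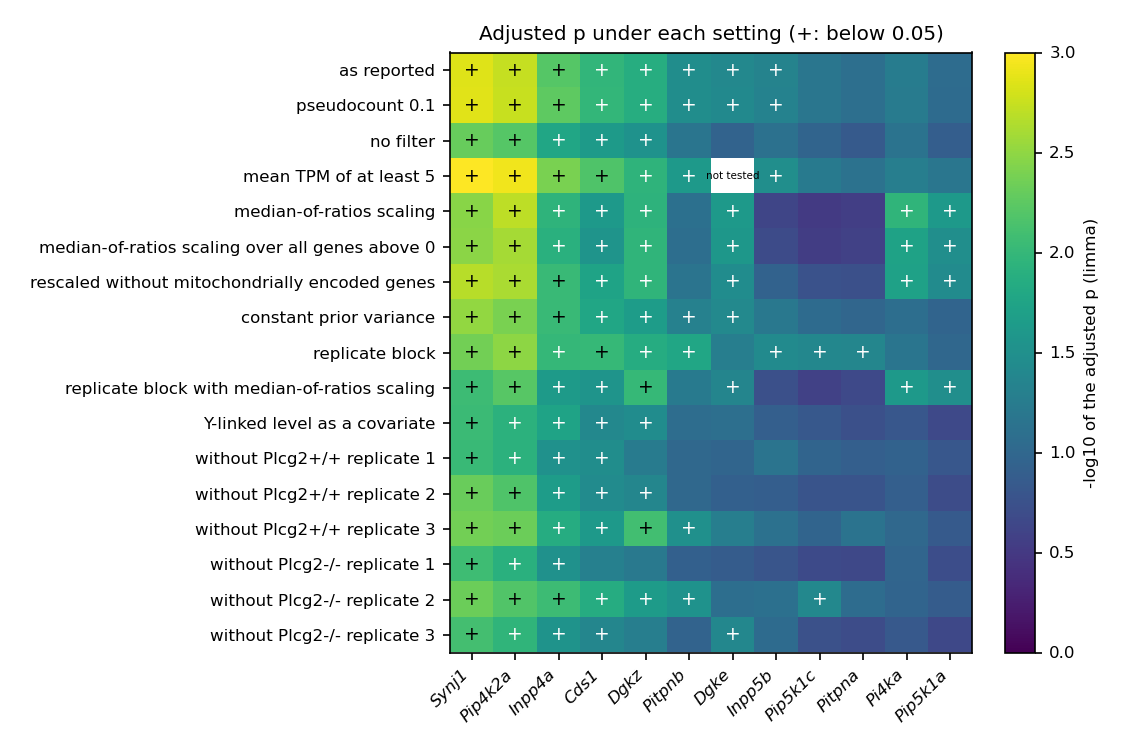
Adjusted p of limma for 12 genes (columns) as reported and under each of 16 other settings (lines), drawn as -log10, with + where it was below 0.05. Synj1, Pip4k2a and Inpp4a carry the sign on every line, Inpp5b on few, and Pi4ka and Pip5k1a on the 4 lines where values were rescaled between libraries.

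The sequences upstream of 3 of the genes that rose most are shown so that their start regions can be read beside their values. The 3 were chosen after the calls were known, as windows free of the gene's own exons. Promoter entries of RefSeq (GRCm38.p6) were matched by symbol for 30 of the 35 genes. Each stretch below is the 150 bases just before the most upstream RefSeq start of the gene, outside its own annotated exons, with motif matches in capitals. Synj1 is on the minus strand at chr16:91011309-91011458, Inpp4a on the plus strand at chr1:37299688-37299837 and Cds1 on the plus strand at chr5:101764980-101765129.
Synj1: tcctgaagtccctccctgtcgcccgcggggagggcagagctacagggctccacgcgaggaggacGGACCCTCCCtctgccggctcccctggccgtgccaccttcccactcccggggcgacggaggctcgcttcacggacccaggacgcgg
Inpp4a: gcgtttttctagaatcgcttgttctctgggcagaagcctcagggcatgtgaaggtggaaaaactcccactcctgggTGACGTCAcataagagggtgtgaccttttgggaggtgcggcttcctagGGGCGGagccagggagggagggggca
Cds1: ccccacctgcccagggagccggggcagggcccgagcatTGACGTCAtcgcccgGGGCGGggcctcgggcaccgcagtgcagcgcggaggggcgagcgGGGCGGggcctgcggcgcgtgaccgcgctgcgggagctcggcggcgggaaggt
The Synj1 window overlaps an exon of the noncoding gene 4930404I05Rik and the Inpp4a window one of 1700074A21Rik, while the Cds1 window holds no annotated exon. Sought on both strands were 14 motifs. In Inpp4a and Cds1 the capitals mark the cyclic AMP response element TGACGTCA, 74 to 67 bases before the start in Inpp4a and 112 to 105 bases before it in Cds1, and GC boxes (GGGCGG), 1 in Inpp4a and 2 in Cds1. In Synj1 they mark 1 match to a loose NF-kB pattern, 86 to 77 bases before the start. That pattern fixes only the outer bases and lets the middle ones be any base, so a match need not be an NF-kB site. No matches overlap within these 3 windows. The cyclic AMP response element stood in 2 of the 30 windows of the group, these 2, and in 1.42% of the same windows of 27025 genes. GC boxes stood in 22 of the 30 against 29% of all windows, where the median GC content was 66.7% in the group and 54% over all genes.

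Other motifs were found as follows. The loose NF-kB pattern stood in 9 of the 30 windows against 11.8% of all, and the CCAAT box (CCAAT) in 9 against 25.3%. The E-box (CACGTG) stood in 4 against 4.28%, the PU.1 core (GAGGAAG) in 2 against 6.71% and the ETS site (CCGGAAG) in 2 against 5.69%. The TATA box (TATAAA) stood in 1 window against 8.08% and the interferon-stimulated response element in 1, that of Itpka, against 1.6%. The AP-1 site (TGANTCA), the NRF1 site, the CLEAR element, which contains the E-box, the YY1 site and the GFY site stood in 0 of the 30, against 4.26%, 4.27%, 0.211%, 0.111% and 0.218% of all windows. A match is a description of letters, not of binding.

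Of the lipid phosphatases 3 of 4 tested genes rose, where 15.6% of all genes tested were higher. The count was 2 of 4, without Inpp5b, after median-of-ratios scaling and with any 1 library left out. Of all genes tested, 7.72% were higher after that scaling. Synj1 (ENSMUSG00000022973.18, chromosome 16, positions 90936092 to 91011308, minus strand, GRCm38) encodes synaptojanin 1, which strips phosphates from phosphatidylinositol 4,5-bisphosphate and is best known from endocytosis. It had 47.8, 49.3 and 42.4 TPM in Plcg2+/+ and 113, 98.0 and 111 TPM in Plcg2-/- libraries. Every Plcg2-/- library stood far above every Plcg2+/+ library, and the lowest of them was the one numbered 2. The means were 46.5 ± 3.62 and 107 ± 8.08 TPM (SD, n = 3 each), a log2 fold change of 1.19 ± 0.11 (SE; limma adjusted p = 0.00141). Its exons share 60 bases with the noncoding 4930404I05Rik on the other strand. Among the 35 genes Synj1 moved from the eighth highest mean level to the third.

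Inpp4a, which removes the 4-phosphate from phosphatidylinositol 3,4-bisphosphate, had 9.16, 9.43 and 9.94 TPM in Plcg2+/+ and 20.3, 15.8 and 18.4 TPM in Plcg2-/- libraries. The groups did not overlap, and the Plcg2+/+ libraries lay closer together than the Plcg2-/- libraries. The log2 fold change was 0.86 ± 0.13 (SE; limma adjusted p = 0.00611). Inpp5b, a 5-phosphatase of phosphatidylinositol 4,5-bisphosphate, had 24.2, 19.6 and 21.8 TPM in Plcg2+/+ and 32.0, 29.4 and 27.7 TPM in Plcg2-/- libraries. Its groups did not overlap but stood close, and its log2 fold change was 0.43 ± 0.12 (SE; limma adjusted p = 0.0457). That call was lost without any 1 library (limma adjusted p = 0.0696, 0.125 and 0.0757 without Plcg2+/+ 1, 2 and 3, and 0.163, 0.079 and 0.0902 without Plcg2-/- 1, 2 and 3) and after median-of-ratios scaling (0.234). Ocrl, the X-linked relative of Inpp5b, stood at 12.5 ± 0.973 and 11.3 ± 2.00 TPM (SD, n = 3 each; limma adjusted p = 0.515), with overlapping libraries. Inpp4b, a relative of Inpp4a, was below the level for testing, with 0.275 to 0.419 TPM in Plcg2+/+ and 0.522 to 1.02 TPM in Plcg2-/-.

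Summed over the 5 phosphatases, the level was 95.2, 90.5 and 86.6 TPM in Plcg2+/+ and 175, 156 and 171 TPM in Plcg2-/- libraries, a ratio of means of 1.84. Synj1 held 49.0 to 54.5% of that sum in Plcg2+/+ and 62.7 to 65.1% in Plcg2-/-, while Ocrl held 13.0 to 14.3% and 5.18 to 7.64%. Such shares within a library do not depend on scaling between libraries. The make-up of the phosphatases thus differed between genotypes in every library, with more Synj1 and less Ocrl relative to the rest in Plcg2-/-. These sums and shares are descriptions, with no test.

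Among the 9 tested lipid kinases 1 rose (11.1%), where 15.6% of all genes tested were higher. In the family of the gene that rose, the leading paralogue differed between genotypes. Pip4k2a (ENSMUSG00000026737.12, chromosome 2, positions 18842255 to 18998126, minus strand) encodes a kinase that makes phosphatidylinositol 4,5-bisphosphate from the 5-phosphate. It had 26.8, 23.8 and 28.3 TPM in Plcg2+/+ and 56.5, 52.0 and 58.7 TPM in Plcg2-/- libraries. The 3 Plcg2-/- values were close to each other and well apart from the Plcg2+/+ values, with a log2 fold change of 1.06 ± 0.11 (SE; limma adjusted p = 0.00181). The 3 same-numbered pairs gave 1.05, 1.10 and 1.03. Pip4k2b stood at 13.9 ± 0.781 and 19.1 ± 2.56 TPM (SD, n = 3 each) with no overlap and did not pass (limma adjusted p = 0.0605, but 0.0308 without Plcg2-/- 2 and 0.0451 over genes with a mean of at least 5 TPM). Of all genes tested, 32.4% lay higher in Plcg2-/- without overlap. Pip4k2c, at 34.5 ± 2.81 and 37.6 ± 1.95 TPM, overlapped between genotypes (limma adjusted p = 0.445). Pip4k2a thus held 37.5, 32.7 and 35.4% of the family's TPM in Plcg2+/+ and 48.5, 49.9 and 50.5% in Plcg2-/- libraries, and Pip4k2c 43.9, 48.5 and 46.1% against 34.2, 34.7 and 31.6%. The most abundant member of the family was Pip4k2c in each Plcg2+/+ library and Pip4k2a in each Plcg2-/- library. No 31-base stretch of the annotated Pip4k2a transcripts occurs in transcripts of another gene.

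**Figure D3:**
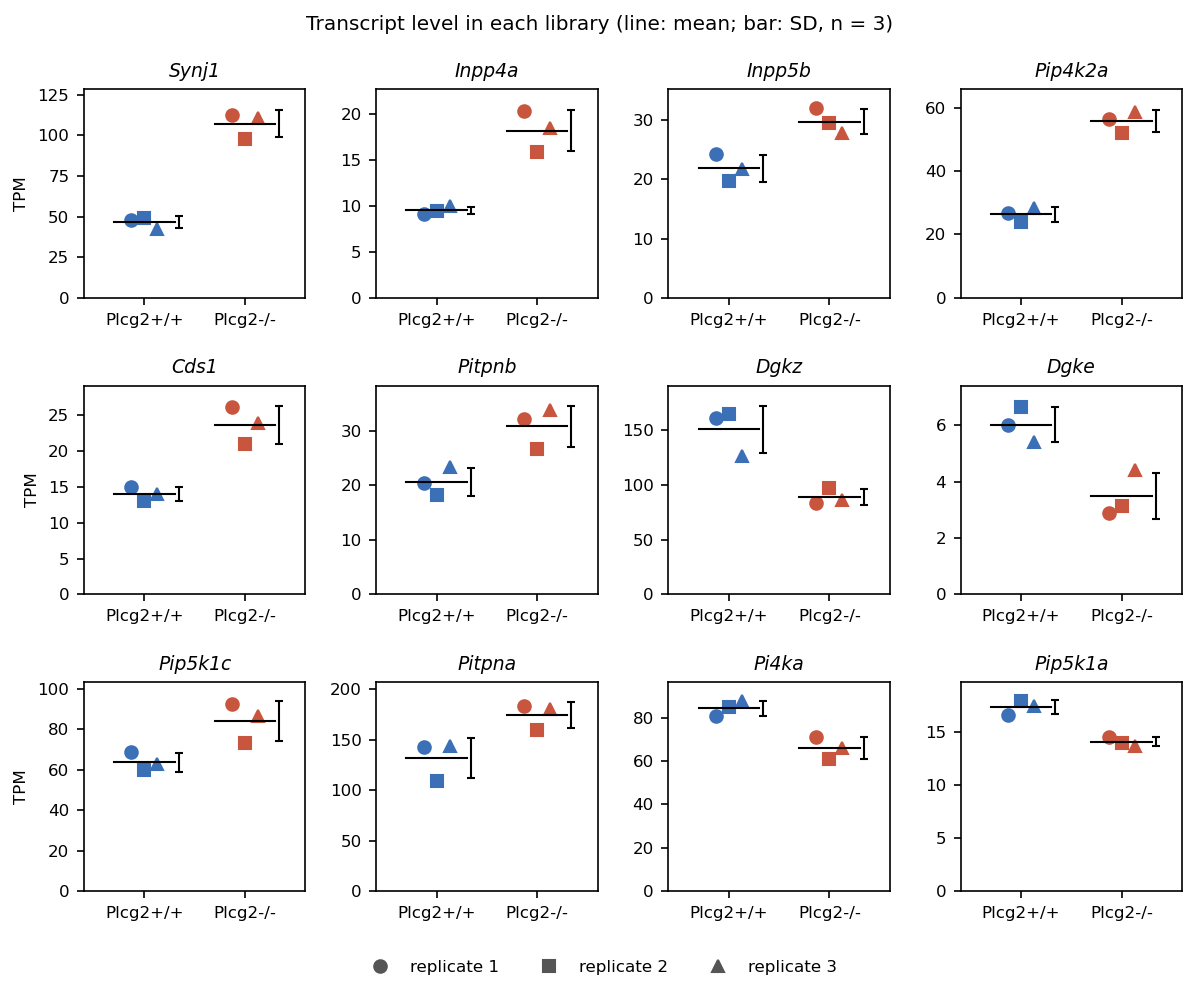
TPM of 12 genes in each library (circles, squares and triangles for replicates 1, 2 and 3; blue Plcg2+/+, red Plcg2-/-), with the mean as a line and the SD as a bar, n = 3, on axes that start at 0. The Synj1 and Pip4k2a groups stand far apart, at means of 46.5 against 107 and 26.3 against 55.8 TPM, while those of Inpp5b and Dgke nearly meet.

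The kinases that make the phospholipase C substrate from phosphatidylinositol 4-phosphate differed in opposite directions without passing (1 higher and 1 lower of 2 at an unadjusted p below 0.05 by limma). Pip5k1c, whose product feeds receptor signalling and phagocytosis, had 68.7, 59.6 and 62.7 TPM in Plcg2+/+ and 92.2, 73.2 and 86.7 TPM in Plcg2-/- libraries, with a log2 fold change of 0.39 ± 0.12 (SE; limma adjusted p = 0.0655, 0.0404 with the replicate block and 0.04 without Plcg2-/- 2). Pip5k1a had 16.6, 17.9 and 17.5 TPM in Plcg2+/+ and 14.5, 14.0 and 13.7 TPM in Plcg2-/- libraries, with a log2 fold change of -0.28 ± 0.10 (SE; limma adjusted p = 0.0878, 0.0247 after median-of-ratios scaling). Neither gene's groups overlapped, as held for 32.4% of all genes tested on the higher side and 10.9% on the lower. Pip5k1b was listed at 0 to 0.121 TPM and was not tested. Of the family's TPM, Pip5k1a held 19.4, 23.1 and 21.8% in Plcg2+/+ and 13.6, 16.0 and 13.6% in Plcg2-/- libraries, so its share was lower in each Plcg2-/- library than in any Plcg2+/+ library.

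Phosphatidylinositol 4-kinases, which make the 4-phosphate, passed in 0 of 4 cases by limma on the deposited scale (2 lower at an unadjusted p below 0.05; 1, Pi4ka, called after median-of-ratios scaling), and their 4 log2 fold changes lay between -0.35 and -0.02. Pi4ka, which supplies the plasma membrane, had 80.7, 85.0 and 87.6 TPM in Plcg2+/+ and 71.3, 61.0 and 66.0 TPM in Plcg2-/- libraries. Its groups did not overlap, with a log2 fold change of -0.35 ± 0.10 (SE; limma adjusted p = 0.0554, 0.0107 after median-of-ratios scaling). Pi4k2a and Pi4k2b, which act on endosomes and the Golgi, stood at 74.4 ± 8.46 and 60.3 ± 4.99 TPM and at 11.2 ± 0.537 and 8.85 ± 1.92 TPM (SD, n = 3 each), without overlap (limma adjusted p = 0.131 and 0.195). Of all genes tested, 10.9% lay lower in Plcg2-/- without overlap. Pi4kb, the Golgi enzyme, stood at 29.6 ± 6.18 and 29.0 ± 3.04 TPM (SD, n = 3 each; limma adjusted p = 0.955). Its small difference changed sign in 4 alternative settings. Summed over the 4 kinases, the level was 191, 216 and 192 TPM in Plcg2+/+ and 170, 154 and 169 TPM in Plcg2-/- libraries.

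**Figure D4:**
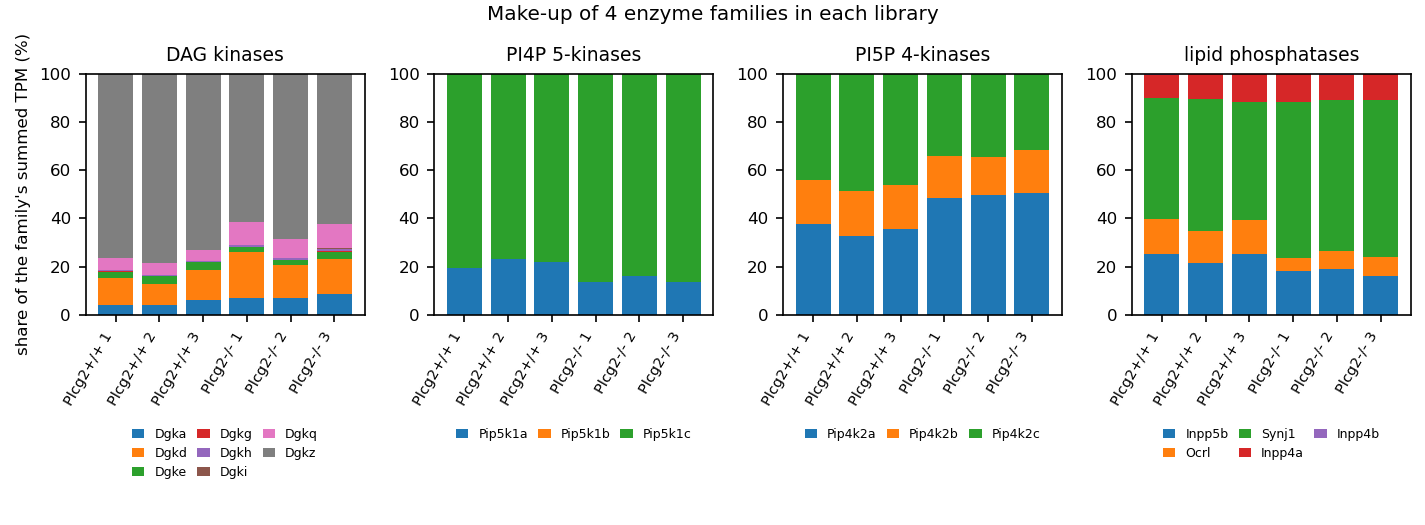
Share of each family's summed TPM held by each gene in the 6 libraries, as stacked bars from 0 to 100%, for diacylglycerol kinases, phosphatidylinositol 4-phosphate 5-kinases, phosphatidylinositol 5-phosphate 4-kinases and lipid phosphatases. Dgkz holds 72.9 to 78.6% of the diacylglycerol kinases in Plcg2+/+ and 61.3 to 68.7% in Plcg2-/-, and Pip4k2a 32.7 to 37.5% and 48.5 to 50.5% of its family.

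Of the transfer proteins, which move phosphatidylinositol between membranes, 1 of 4 rose, where 15.6% of all genes tested were higher. Pitpnb had 20.4, 18.2 and 23.3 TPM in Plcg2+/+ and 32.1, 26.6 and 33.8 TPM in Plcg2-/- libraries. All Plcg2-/- libraries were above the Plcg2+/+ libraries, with a log2 fold change of 0.56 ± 0.14 (SE; limma adjusted p = 0.0341). The call was lost after median-of-ratios scaling (limma adjusted p = 0.0785) and without Plcg2+/+ 1, Plcg2+/+ 2, Plcg2-/- 1 or Plcg2-/- 3 (0.0981, 0.0959, 0.122 and 0.112). Exons of Pitpnb share 775 bases, 22.9% of their length, with the antisense gene Gm43118, with 11.6 ± 0.661 TPM in Plcg2+/+ and 7.04 ± 3.62 TPM in Plcg2-/- (SD, n = 3 each), and reads of the pair cannot be told apart without strand, which has no mention in the sources used here. Pitpna, the most abundant of the 4, had 143, 109 and 144 TPM in Plcg2+/+ and 184, 160 and 181 TPM in Plcg2-/- libraries, without overlap (limma adjusted p = 0.0806, 0.0424 with the replicate block). Pitpnm1, which works where the endoplasmic reticulum touches the plasma membrane, stood at 122 ± 12.5 and 101 ± 8.50 TPM (SD, n = 3 each), again without overlap (limma adjusted p = 0.166). Of all genes tested, 32.4% lay higher and 10.9% lower in Plcg2-/- without overlap. Pitpnc1 was low, with 3.31 to 6.29 TPM in Plcg2+/+ and 2.93 to 3.91 TPM in Plcg2-/-, and overlapped. Pitpna was thus higher relative to Pitpnm1 in Plcg2-/- libraries: Pitpna held 43.0 to 51.3% of the family's TPM in Plcg2+/+ and 54.1 to 58.4% in Plcg2-/-, and Pitpnm1 39.2 to 47.4% and 29.5 to 35.5%.

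Of the diacylglycerol kinases, which end the diacylglycerol signal, 2 of 6 tested genes fell, where 5.31% of all genes tested were lower. The count was 0 without Plcg2+/+ 1 or Plcg2-/- 1, where 349 of 12648 and 308 of 12680 genes tested were lower. It was 1 without any other single library. Dgkz (ENSMUSG00000040479.12, chromosome 2, positions 91932824 to 91975864, minus strand) encodes the zeta isoform, known for limiting diacylglycerol signalling in lymphocytes, and had the highest mean of all 35 genes in Plcg2+/+. It had 162, 165 and 127 TPM in Plcg2+/+ and 83.8, 97.7 and 86.8 TPM in Plcg2-/- libraries. The groups did not overlap, and Plcg2+/+ 3 was the lowest of its group. The means were 151 ± 21.3 and 89.4 ± 7.30 TPM (SD, n = 3 each), a log2 fold change of -0.74 ± 0.14 (SE; limma adjusted p = 0.0137). Without Plcg2+/+ 1, Plcg2-/- 1 or Plcg2-/- 3 the limma adjusted p was 0.0565, 0.0616 and 0.0525. Its exons share 222 bases, 3.54% of their length, with Gm9821 on the other strand. Dgkz moved from the first to the fifth highest mean of the 35 genes.

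Dgke, the epsilon isoform, which prefers diacylglycerol that carries arachidonate, had 5.99, 6.65 and 5.40 TPM in Plcg2+/+ and 2.89, 3.15 and 4.41 TPM in Plcg2-/- libraries. The highest Plcg2-/- value, in the library numbered 3, came near the lowest Plcg2+/+ value. The log2 fold change was -0.66 ± 0.17 (SE; limma adjusted p = 0.0394), and the call was lost with the replicate block (0.0527) and without any 1 library other than Plcg2-/- 3 (0.106, 0.12 and 0.0522 without Plcg2+/+ 1, 2 and 3, and 0.136 and 0.0835 without Plcg2-/- 1 and 2). Dgkd, Dgka and Dgkq, the next most abundant kinases after Dgkz, stood at 21.0 ± 2.21 and 21.8 ± 3.44, at 9.48 ± 1.23 and 10.5 ± 1.27 and at 9.49 ± 1.38 and 12.7 ± 1.80 TPM (SD, n = 3 each), and did not pass (limma adjusted p = 0.849, 0.537 and 0.12). The small differences of Dgkd, Dgka and Dgkh turned negative after median-of-ratios scaling. Of the exon length of Dgkq, 29.1% overlaps Tmem175 on the other strand, so its level is uncertain. Dgkh was near the level for testing, at 1.07 to 1.44 TPM, and Dgkg and Dgki were below it, at no more than 0.432 TPM. Summed over the 8 kinases, the level was 212, 210 and 174 TPM in Plcg2+/+ and 137, 142 and 140 TPM in Plcg2-/- libraries, a ratio of means of 0.703. Most of that difference was in Dgkz, with means of 151 and 89.4 TPM. On the deposited scale 4 of the 6 tested kinases had positive log2 fold changes and 2 negative, with a median of 0.07.

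In resynthesis, 1 of 3 genes rose, where 15.6% of all genes tested were higher. Cds1 (ENSMUSG00000029330.8, chromosome 5, positions 101765130 to 101823858, plus strand), a CDP-diacylglycerol synthase, had 15.0, 13.1 and 14.0 TPM in Plcg2+/+ and 26.2, 20.9 and 24.0 TPM in Plcg2-/- libraries. The groups were well apart, with a log2 fold change of 0.72 ± 0.12 (SE; limma adjusted p = 0.0105; 0.05002 without Plcg2-/- 1). Its more abundant paralogue Cds2 went from 40.4 ± 4.74 to 33.2 ± 3.75 TPM (SD, n = 3 each) with overlapping libraries and did not pass (limma adjusted p = 0.184). Cdipt, the phosphatidylinositol synthase, was among the most abundant of the 35 genes at 124 ± 15.4 and 117 ± 14.6 TPM (SD, n = 3 each; limma adjusted p = 0.719). The summed level of the 3 genes was 157 to 196 TPM in Plcg2+/+ and 162 to 182 TPM in Plcg2-/-, so the sum overlapped, while the share of Cds1 was 6.68 to 8.92% of it in Plcg2+/+ and 11.5 to 14.8% in Plcg2-/-.

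Of the genes that act on soluble inositol phosphates, limma called 0 of 4 tested, as it did after median-of-ratios scaling, with 0 at an unadjusted p below 0.05. Itpkb, the main inositol trisphosphate 3-kinase here, held 85.1 ± 1.62% and 82.6 ± 4.01% of its family's TPM (SD, n = 3 each) and stood at 21.0 ± 1.09 and 22.5 ± 3.36 TPM (limma adjusted p = 0.679). Itpkc stood at 3.01 ± 0.129 and 3.48 ± 1.00 TPM (SD, n = 3 each; limma adjusted p = 0.681), and Itpka was below the level for testing, at 0.267 to 1.07 and 0.596 to 2.03 TPM. Of the exon length of Itpkc, 24.1% overlaps BC024978 on the other strand, which had a mean of 4.02 TPM, so the level of Itpkc is uncertain. Impa1 and Impa2 encode inositol monophosphatases, the lithium-sensitive enzymes that free inositol. Impa1 stood at 27.7 ± 1.64 and 30.1 ± 2.21 TPM (SD, n = 3 each; limma adjusted p = 0.479). Impa2 varied most, at 3.08, 5.53 and 7.66 TPM in Plcg2+/+ and 13.8, 5.42 and 10.4 TPM in Plcg2-/- libraries, and overlapped (log2 fold change 0.74 ± 0.38, SE; limma adjusted p = 0.196). Of its exon length, 23.55% overlaps B430212C06Rik on the other strand, which had a mean of 0.0488 TPM. Itpkb, Itpkc and Impa1 had small differences whose sign turned negative after median-of-ratios scaling.

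Y-linked transcripts were near 0 in Plcg2+/+ 1, Plcg2-/- 2 and Plcg2-/- 3 (mean log2(TPM + 1) of 4 genes 0.12 to 0.30) and present in the others (3.54 to 4.20), a split that the labels do not mention. Within the libraries near 0, the difference of means on the log2(TPM + 1) scale, Plcg2-/- minus Plcg2+/+, was 1.11 for Synj1, 1.02 for Pip4k2a, 0.83 for Inpp4a, 0.55 for Cds1, 0.53 for Pitpnb, 0.23 for Inpp5b, -0.81 for Dgkz and -0.56 for Dgke. Within the others it was 1.28, 1.09, 1.00, 0.90, 0.62, 0.60, -0.78 and -0.85 in the same order. Each set has 1 library in one genotype and 2 in the other and allows no test of its own. The direction within a set is fixed by the ranges of these 8 genes, which do not overlap between genotypes, so only the sizes differ between sets. Once the Y-linked level entered as a covariate, Synj1, Pip4k2a, Inpp4a, Cds1 and Dgkz passed, and Pitpnb, Inpp5b and Dgke did not (limma adjusted p = 0.0844, 0.125 and 0.0813). After rescaling without mitochondrially encoded genes the log2 fold changes of Synj1, Pip4k2a, Inpp4a, Cds1, Dgkz and Dgke passed, those of Pitpnb and Inpp5b did not (limma adjusted p = 0.0701 and 0.115), and Pi4ka and Pip5k1a passed as lower (0.0191 and 0.0358).

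The neighbouring genes of the pathway were taken from a list of 80 symbols, 79 of them found and 70 tested. Of those, 20 were higher and 6 lower in Plcg2-/-, 28.6% and 8.57%, beside 15.6% and 5.31% of all genes tested. After median-of-ratios scaling the counts were 9 and 11 of 70, against 7.72% and 7.91% of all genes tested. Among other phosphoinositide phosphatases 9 of 20 rose and 1 fell, and the gene with the smallest p was Inpp5d, which encodes the 5-phosphatase SHIP1 of blood cells and rose from 58.9 ± 4.69 to 97.7 ± 3.66 TPM (SD, n = 3 each; limma adjusted p = 0.00598). After median-of-ratios scaling 2 of these 20 were higher and 2 lower, near the 7.72% and 7.91% of all genes tested. Rises among the 20 numbered 3, 2 and 5 without Plcg2+/+ 1, 2 and 3, and 1, 11 and 1 without Plcg2-/- 1, 2 and 3, and 2 with the Y-linked covariate. Over all genes tested, rises numbered 1971 with all libraries and 842 with the Y-linked covariate. Without Plcg2+/+ 1, 2 and 3 they numbered 853, 1018 and 2150, and without Plcg2-/- 1, 2 and 3 they numbered 618, 1867 and 831. The 1 that fell, named after its values were seen, was Synj2, the paralogue of Synj1, from 8.77 ± 0.662 to 4.00 ± 1.00 TPM (SD, n = 3 each; limma adjusted p = 0.0122), so the 2 synaptojanin genes moved in opposite directions.

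Of 14 tested genes around phosphoinositide 3-kinases 5 rose and 0 fell by limma (7 and 2 at an unadjusted p below 0.05), led by Pik3cd, the catalytic subunit delta of leukocytes, from 49.6 ± 6.40 to 102 ± 14.6 TPM (SD, n = 3 each; limma adjusted p = 0.00645). The 5 rises are 35.7% of the 14, beside 15.6% higher and 5.31% lower among all genes tested. Median-of-ratios scaling gave 4 higher and 2 lower of the 14, against 7.72% and 7.91% of all genes tested. Without Plcg2-/- 1, 2 of the 14 were higher. Other genes of diacylglycerol and phosphatidate gave 1 rise and 4 falls of 12 (8.33% and 33.3%), and 0 rises and 5 falls after that scaling. The smallest p among them was that of Dgat1, which turns diacylglycerol into triglyceride and fell from 83.3 ± 21.1 to 29.5 ± 3.22 TPM (SD, n = 3 each; limma adjusted p = 0.00377). The other 3 falls were Daglb, Plpp3 and Plpp1 and the rise was Lpin2, named after their values were seen. Rises there numbered 0 without Plcg2+/+ 2 or any 1 Plcg2-/- library. Over all genes tested, rises numbered 853 and 1018 without Plcg2+/+ 1 and 2, against 1971 with all libraries. They numbered 618, 1867 and 831 without Plcg2-/- 1, 2 and 3. Of 13 other inositol phosphate genes 3 rose and 0 fell by limma (3 and 0 at an unadjusted p below 0.05). The rises are 23.1% of the 13, beside 15.6% of all genes tested. After median-of-ratios scaling 1 of the 13 was higher and 1 lower. Rises among the 13 numbered 0 without Plcg2+/+ 1, Plcg2+/+ 2 or Plcg2-/- 1, and 1 without Plcg2-/- 3. The smallest p was that of Itpk1, an inositol phosphate kinase, which went from 14.2 ± 1.37 to 21.7 ± 1.83 TPM (SD, n = 3 each; limma adjusted p = 0.0196; 0.0625 and 0.057 when Plcg2+/+ 1 or 2 was left out, 0.0821 and 0.0731 when Plcg2-/- 1 or 3 was).

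Of 11 other transfer and scaffold genes 2 rose (1 without Plcg2-/- 1) and 1 fell (2 without Plcg2+/+ 3). These are 18.2% and 9.09% of the 11, beside 15.6% and 5.31% of all genes tested. The fall, which had the smallest p, was that of Efr3b, a membrane anchor of the Pi4ka complex, which averaged 5.48 ± 2.34 TPM in Plcg2+/+ and 0.241 ± 0.162 TPM in Plcg2-/- (SD, n = 3 each), a log2 fold change of -2.32 ± 0.32 (SE; limma adjusted p = 0.00477). The 2 rises, named after their values were seen, were Efr3a, its paralogue (24.0 ± 1.67 to 39.1 ± 4.12 TPM), and Ttc7, another part of that complex (36.5 ± 7.85 to 73.7 ± 8.13 TPM; SD, n = 3 each; limma adjusted p = 0.0119 and 0.0103). Over the 70 genes, rises numbered 10, 8 and 16 without Plcg2+/+ 1, 2 and 3, and 4, 21 and 8 without Plcg2-/- 1, 2 and 3. Over all genes tested they numbered 853, 1018 and 2150, and 618, 1867 and 831, in the same order, against 1971 with all libraries. The plot of listed genes and other genes of the pathway shows the spread of each list.

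**Figure D5:**
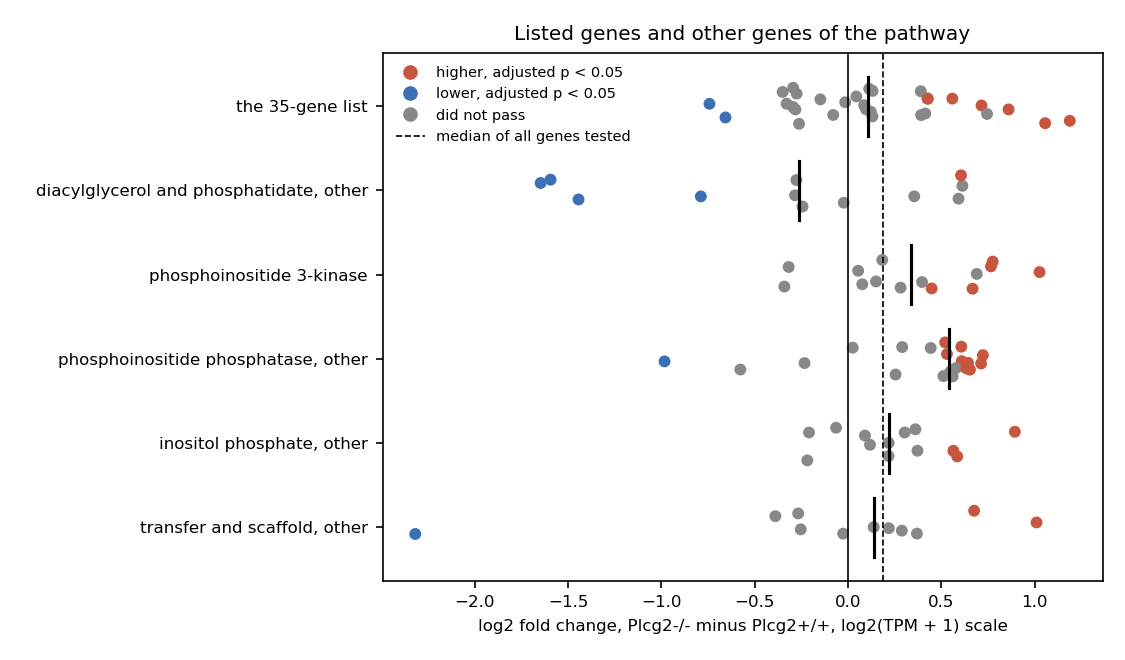
Log2 fold change, Plcg2-/- minus Plcg2+/+ on the log2(TPM + 1) scale, of the 30 tested genes of the group (top) and of 70 other tested genes of the pathway in 5 lists, 1 point a gene with vertical scatter for legibility only. Red passed as higher, blue as lower, grey did not pass, the short black lines are list medians and the dashed line is the median of all genes tested; the medians run from -0.26 for diacylglycerol and phosphatidate genes to 0.54 for other phosphatases.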

How the data were processed

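Polyadenylated RNA of 6 libraries was sequenced as 150-bp paired ends, per the labels' protocols. The values the authors deposited are TPM by gene ID, each column summing to 1000000. The submitters' processing notes name Salmon 1.3.0, DESeq2 1.30.1, R 4.0.4 and the build GRCm38.p6, without their roles; annotation release and strandedness: not given in the sources used here. TPM keeps no depth, so no count model was run.

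Genotypes were compared by limma 3.58.1 (R 4.3.3) on log2(TPM + 1), which understates changes of low genes, over the 12652 genes with a mean of at least 1 TPM. The moderated test was two-sided, with 4 residual degrees of freedom and a prior variance that follows the mean; Benjamini-Hochberg adjustment covered all genes tested, with a threshold of 0.05. The script was tested on simulated data, where it recovered 3 of 50 genes changed by a log2 of 0.5, 41 of 50 by 1, 49 of 50 by 2 and 50 of 50 by 3. Fewer genes were changed there than were called here, which alters the adjustment, so these are not recovery rates for these data. A gene that did not pass may still differ. Sums, shares and plots used Python 3.11.15, pandas 2.3.3 and matplotlib 3.10.9.

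Replicate numbers 1 to 3 come from the titles. Deviations from genotype means correlated at 0.295, 0.193 and 0.147 between same-numbered libraries, all above 0.1, the limit set for treating the numbers as pairs. The labels do not say what a number marks, so the reported fit has no block and leaves any pairing out. Fits that use it are those with the replicate block. Same-numbered libraries differed in Y-linked level (mean log2(TPM + 1) 0.12 and 3.54, 4.20 and 0.25, and 4.10 and 0.30, Plcg2+/+ first). Other settings were a pseudocount of 0.1, no filter, a mean of at least 5 TPM, median-of-ratios scaling, rescaling without mitochondrially encoded genes, a constant prior variance, the replicate block alone and with that scaling, the Y-linked level as covariate, and leaving out each library. Median-of-ratios scaling was listed without naming the genes that set its factors. It was first run over all genes above 0 in all libraries; after those counts were seen, tested genes above 0 were used for the values given, and the first version is kept as a separate setting.

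Members called, or whose call changes under the block or median-of-ratios scaling, are given per library, and of other pathway genes the called one with the smallest p in each list. The genes, lists and tests were chosen with earlier results of these data known. The 14 motifs were first looked for in 250 bases before the start, and the window of 150 bases was set after matches were seen. Positions and overlaps come from GENCODE M21 (GRCm38), which held all 35 gene IDs, 34 with the same version; Dgkz was matched without it.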

Additional observations from a re-analysis of the deposited data

How the results depend on the processing

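Synj1, Pip4k2a and Inpp4a kept their direction and call in all 16 alternatives, with log2 fold changes of 0.98 to 1.25, 0.85 to 1.11 and 0.66 to 0.95, and the other 5 called genes kept their direction in every alternative in which they were tested. With 1 library left out, members higher numbered 3 to 7 and members lower 0 to 1. Over all genes tested, 618 to 2150 were higher and 308 to 648 lower in those fits. Members lower numbered 1 with no filter, 1 at a mean of at least 5 TPM (where Dgke was not tested), 4 after median-of-ratios scaling over either gene set, 4 after rescaling without mitochondrially encoded genes, 1 with the replicate block, 5 with the replicate block and median-of-ratios scaling (Pitpnm1 added) and 1 with the Y-linked covariate. The replicate block, which pairs same-numbered libraries, changed no call of a member other than those of Dgke, Pip5k1c and Pitpna. Other pathway genes higher numbered 10 with no filter, 9 after median-of-ratios scaling over either gene set, 10 after rescaling without mitochondrially encoded genes, 10 with the replicate block and median-of-ratios scaling, 8 with the Y-linked covariate and 4 to 21 with 1 library left out; lower, they numbered 11 after median-of-ratios scaling. Which genes set the median-of-ratios factors was decided after the counts were seen, and all alternatives for the other pathway genes were added after seeing the data. Over all genes tested, 1971 were higher and 672 lower as reported. These numbers were 1226 and 500 of 26346 with no filter, and 2016 and 568 of 9263 at a mean of at least 5 TPM. They were 977 and 1001 after median-of-ratios scaling (996 and 911 over all genes above 0), and 1222 and 823 without mitochondrially encoded genes. They were 2483 and 815 with the replicate block, 1104 and 1139 with block and scaling, and 842 and 375 with the Y-linked covariate. The cause of the changes between settings was not tested.

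Members that were not called changed sign as follows. After median-of-ratios scaling, with or without the replicate block, the log2 fold change was -0.0646 for Dgka, -0.162 for Dgkd, -0.0212 for Dgkh, -0.0883 for Pip4k2c, -0.121 for Itpkb, -0.0327 for Itpkc and -0.0956 for Impa1. With the factors over all genes above 0 it was -0.0297 for Dgka, -0.125 for Dgkd, -0.000424 for Dgkh, -0.0507 for Pip4k2c, -0.0836 for Itpkb, -0.00287 for Itpkc and -0.0583 for Impa1. After rescaling without mitochondrially encoded genes it was -0.0832 for Dgkd, -0.00787 for Pip4k2c, -0.0417 for Itpkb and -0.0158 for Impa1. With the Y-linked covariate that of Pi4kb was 0.0846. With 1 library left out, Dgkd ranged from -0.0759 to 0.117, Cdipt from -0.18 to 0.00346 and Pi4kb from -0.10 to 0.14. TPM gives no depth, so no limit from depth can be stated.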
